A study of Homo sapiens with 12 samples.

Results

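The comparison described here asked which transcripts answered a gamma-secretase inhibitor differently in 2 human cell lines, Rec-1 and SP-49, both grown from mantle cell lymphoma, a cancer of B cells. For each gene the inhibitor response was taken in each line, as the mean of the inhibitor arrays minus the mean of the mock arrays, and the SP-49 response was then subtracted from the Rec-1 response. A positive difference therefore means a higher response in Rec-1 and a negative one a lower response in Rec-1, whichever line moved. The 8 Rec-1 and SP-49 arrays of the 12 in the study form the comparison, and it covered 19775 genes. In each line 2 arrays (GSI) came from cells treated with the gamma-secretase inhibitor compound E at 1 µM for 24 h, and 2 arrays (Mock) from cells given 0.1% DMSO for 24 h. Both lines grew in 10% serum. The other 4 arrays came from Mino, a further mantle cell lymphoma line grown in 15% serum. They entered the estimate of each gene's spread, the choice of its probe set and the median of all values, but not the responses compared.

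Notch receptors act as transcription factors once gamma-secretase has cut their intracellular part free. The freed part joins the DNA-binding protein RBPJ in the nucleus and switches on HES and HEY repressor genes, feedback regulators of the pathway and, in lymphoid cells, MYC. A gamma-secretase inhibitor stops that cut, so transcripts that depend on continued Notch signalling decline within hours, while other transcripts follow later. Gamma-secretase also cuts many other membrane proteins.

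Values are signals on the log2 scale of Affymetrix arrays with 54675 probe sets, so a difference of 1 means that the fold change in Rec-1 is 2 times that in SP-49. All values ran between 0.58 and 12.78 with a median of 1.99, and signals near the bottom of that range are mostly background, where a further fall cannot be seen. The number of arrays, 2 a group, limits the precision: the median standard error was 0.164 for a response and 0.232 for the difference between responses. The correlation between arrays was 0.979 to 0.995 within a line and 0.932 to 0.946 between Rec-1 and SP-49 arrays. As a measure of RNA integrity, the 3' minus the 5' probe set of GAPDH gave 0.59 and 0.49 on the Rec-1 GSI arrays, against 0.41 and 0.37 on the Rec-1 Mock arrays, and 0.35 and 0.44 on the SP-49 GSI arrays, against 0.35 and 0.34 on the SP-49 Mock arrays. The same measure for ACTB gave 2.29 and 1.92 on the Rec-1 GSI arrays, against 2.0 and 1.83 on the Rec-1 Mock arrays, and 2.30 and 2.16 on the SP-49 GSI arrays, against 2.29 and 2.36 on the SP-49 Mock arrays, so it overlapped between GSI and Mock arrays in both lines. The part of these RNA integrity values in the differences was not tested. B-cell markers were high in both lines: MS4A1 (CD20) averaged 10.75 ± 0.04 with inhibitor and 10.24 ± 0.01 on Mock arrays in Rec-1, and 11.22 ± 0.15 and 11.09 ± 0.01 in SP-49 (SD, n = 2 each). CCND1, the cyclin D1 gene that defines mantle cell lymphoma, stood between 10.12 and 10.78 on all 8 arrays. SOX11, another marker of this lymphoma, averaged 4.87 with inhibitor and 4.90 on Mock arrays in Rec-1, against 8.66 and 8.56 in SP-49, and CD5 lay between 2.23 and 2.96 on all 8 arrays. Nothing in the labels says whether the 2 arrays of a group came from separate cultures, so the p-values reflect the spread among these arrays alone, which may be technical.

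The difference passed an adjusted p of 0.05 (limma, two-sided, Benjamini-Hochberg over all genes) for 110 genes, 0.556% of those tested. The response was higher in Rec-1 for 76 of them (0.384%) and lower for 34 (0.172%). At an unadjusted p under 0.05 there were 2170 genes. Within Rec-1 alone 1141 genes passed (5.77%), 426 of them raised by the inhibitor (2.15%) and 715 lowered (3.62%), and within SP-49 alone 38 passed (0.192%), 4 raised (0.0202%) and 34 lowered (0.172%). Of the 1123 genes past the threshold in Rec-1 and not in SP-49, 94 passed for the difference itself (8.37%). For the rest of these genes a difference between the lines was not shown, although Rec-1 passed and SP-49 did not. Among the 20 genes past the threshold in SP-49 and not in Rec-1, 7 passed for the difference (35.0%), among the 18 past it in both lines 1 did (5.56%), and among the 18614 past it in neither 8 did.

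**Figure D1:**
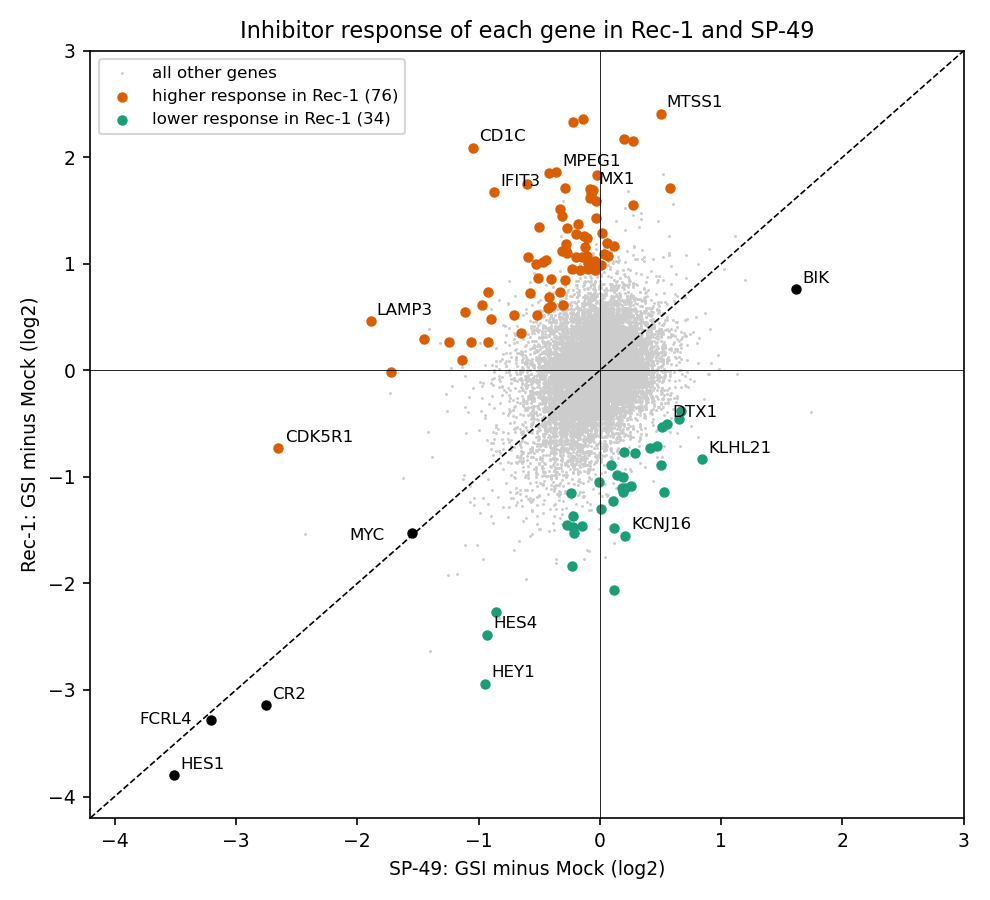
Inhibitor response of each of 19775 genes, GSI mean minus Mock mean on the log2 scale, in Rec-1 (vertical axis) and SP-49 (horizontal axis), with equal responses on the dashed line. Orange points are the 76 genes with a higher response in Rec-1 and green points the 34 with a lower one; black points mark HES1, FCRL4, CR2, MYC and BIK, which did not pass for the difference.

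The 110 genes were mostly ones whose transcripts moved in Rec-1. Among the 76 with a higher response, 62 passed the threshold in Rec-1 only, 7 in SP-49 only, 1 in both and 6 in neither. Their median response was 1.07 in Rec-1 and -0.29 in SP-49. Among the 34 with a lower response, 32 passed in Rec-1 only and 2 in neither line, with a median response of -1.12 in Rec-1 and 0.16 in SP-49. The responses had opposite signs for 63 of the 76 and 23 of the 34, mostly with an SP-49 response that did not pass. Choosing genes by a large difference itself favours opposite signs, and the share over all genes was not counted. The 4 differences between a GSI and a Mock array in Rec-1 lay beyond all 4 in SP-49 for all 110 genes, and for 25.1% of all genes (13.6% higher and 11.5% lower in Rec-1). A difference of at least 1 log2 unit was found for 102 of the 110, and of at least 2 for 9.

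The starting levels of the 2 lines were often far apart. On the Mock arrays 5714 genes (28.9%) differed between the lines, 2595 higher in Rec-1 (13.1%) and 3119 lower (15.8%). Of the 76 genes with a higher response in Rec-1, 55 started lower there than in SP-49, 47 of them past the threshold, and the median gap (Rec-1 minus SP-49) was 0.17 on the GSI arrays, against -1.27 on the Mock arrays. Of the 34 genes with a lower response in Rec-1, 28 started higher there, 27 of them past the threshold, and the median gap was 0.18 on the GSI arrays, against 1.46 on the Mock arrays. The gap between the lines was smaller with inhibitor than without it for 46 of the 76 and 24 of the 34, and it changed sign for 23 and 10. With inhibitor Rec-1 was higher past the threshold for 32 of the 76 and 12 of the 34 (14.2% of all genes) and lower for 20 and 12 (14.7%). The difference between the responses is the GSI gap minus the Mock gap, so the Mock arrays enter both quantities, and these counts are given as a description without a test. Over all genes, starting gaps irrespective of the threshold, smaller gaps and changes of sign were not counted. In SP-49 both means lay under the median of all values for 3 of the 76 and 4 of the 34 genes, where a fall in that line could not have been seen.

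**Figure D2:**
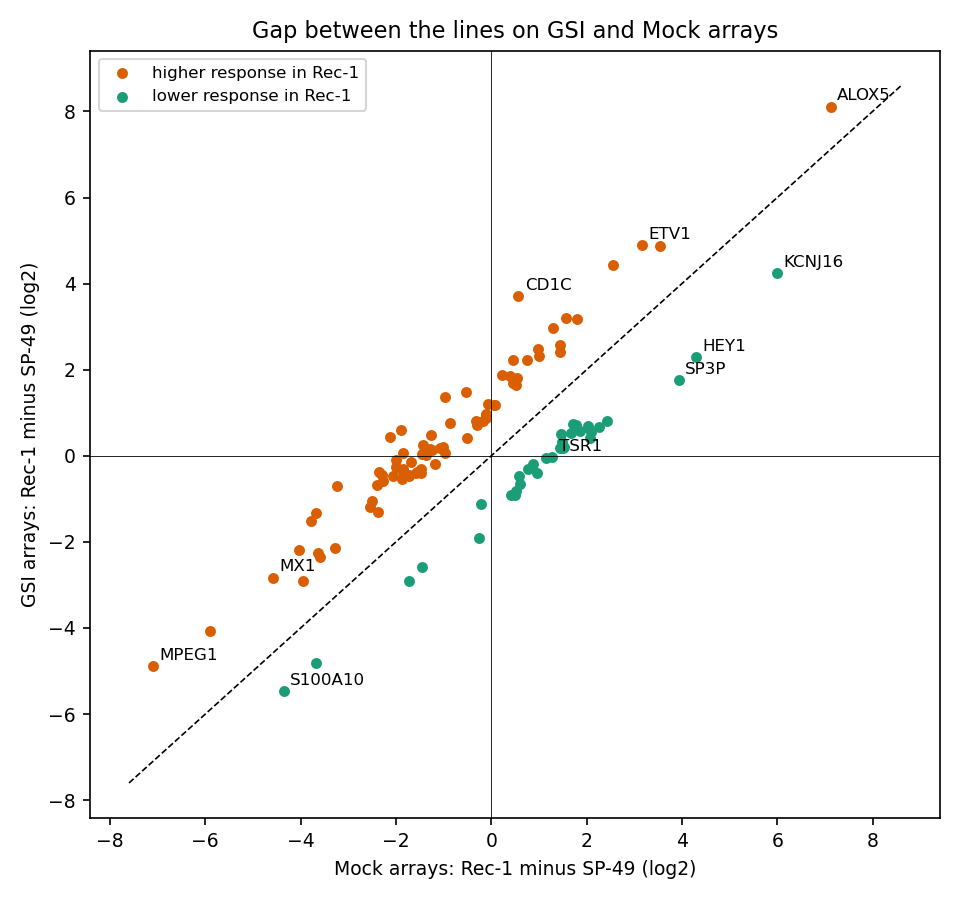
Gap between the lines, Rec-1 mean minus SP-49 mean on the log2 scale, on the GSI arrays (vertical axis) and the Mock arrays (horizontal axis) for the 110 genes whose inhibitor response differed. Points above the dashed line of equal gaps have a higher response in Rec-1 and points below it a lower one. MPEG1 started 7.10 log2 units lower in Rec-1 and KCNJ16 5.99 higher.

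Of 16 listed Notch targets, 7 fell and 1 rose in Rec-1, against 3.62% and 2.15% of all genes. In SP-49 2 fell, against 0.172% of all genes. For 3 of the 16 (HEY1, HES4 and DTX1) the response was lower in Rec-1 than in SP-49, against 0.172% of all genes. For none was it higher. The median difference over the list was -0.45, against 0.02 over all genes, with a median response of -0.68 in Rec-1 and -0.15 in SP-49.

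HEY1, a repressor that Notch induces, read 5.24 and 4.53 on the Rec-1 GSI arrays, against 7.88 and 7.77 on the Rec-1 Mock arrays. In SP-49 it read 2.64 and 2.52 on the GSI arrays, against 3.52 and 3.54 on the Mock arrays. The GSI arrays lay below the Mock arrays in each line, and all Rec-1 values lay above all SP-49 values. The response was -2.94 in Rec-1 and -0.95 in SP-49, and the difference was -1.99 (95% interval -2.61 to -1.38, adjusted p = 0.0156). The Rec-1 cells thus started 4.30 log2 units higher and still stood 2.30 higher with inhibitor. The SP-49 GSI values lay not far above the median of all values. From the SP-49 start, a fall as large as that in Rec-1 could hardly have been seen.

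HES4, a repressor of the HES family, read 2.60 and 2.70 on the Rec-1 GSI arrays, against 5.11 and 5.14 on the Rec-1 Mock arrays, and 2.15 and 2.03 on the SP-49 GSI arrays, against 3.25 and 2.80 on the SP-49 Mock arrays. All 4 GSI arrays ended close to the median of all values, from Mock levels that were 2.10 higher in Rec-1. The difference was -1.55 (95% interval -2.20 to -0.90, adjusted p = 0.0482). With inhibitor the gap between the lines was 0.56 (adjusted p = 0.0706).
The RBPJ core letters TGGGAA were found upstream of the HES4 start on the strand of the gene, and the window is shown because HES4 is the HES family gene that differed; capitals mark the core, at chr1:1000148-1000193 on the minus strand of GRCh38.p14 (RefSeq).
HES4: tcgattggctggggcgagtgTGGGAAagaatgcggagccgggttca

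DTX1, a ubiquitin ligase of the Deltex family that regulates Notch, had responses of opposite sign. It read 8.36 and 8.39 on the Rec-1 GSI arrays, against 8.93 and 8.82 on the Rec-1 Mock arrays, a fall of -0.50 (adjusted p = 0.0371). In SP-49 it read 7.55 and 7.75 on the GSI arrays, against 7.07 and 7.14 on the Mock arrays, a response of 0.55 that did not pass (adjusted p = 0.13). The difference was -1.05 (95% interval -1.44 to -0.67, adjusted p = 0.0275), and the lead of Rec-1 was 0.72 with inhibitor, against 1.77 on Mock arrays. MFNG, the manic fringe enzyme that puts sugars on Notch receptors, differed by -1.08 (adjusted p = 0.0452), with a fall of -0.78 in Rec-1 and a response of 0.29 in SP-49. Its 2 other probe sets gave -0.80 and 0.00. SH2B2, an adaptor protein of receptor signalling listed among Notch-linked B-cell genes, differed by -1.19 (adjusted p = 0.0212), with a fall of -1.0 in Rec-1 and a response of 0.19 in SP-49.

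DTX4, another Deltex family gene, ran the other way. It read 6.56 and 6.38 on the Rec-1 GSI arrays, against 6.24 and 6.17 on the Rec-1 Mock arrays, and 6.31 and 6.53 on the SP-49 GSI arrays, against 7.83 and 7.49 on the SP-49 Mock arrays. The SP-49 cells started 1.46 higher and ended level with Rec-1 (gap 0.05). The response was 0.27 in Rec-1, which did not pass, and -1.24 in SP-49, which did (adjusted p = 0.0333), and the difference was 1.51 (95% interval 0.92 to 2.10, adjusted p = 0.0355). Over 27 genes of the Notch machinery 1 response was higher in Rec-1 (DTX3L) and 1 lower (MFNG), with a median difference of -0.09. Over 15 Notch-linked B-cell genes 2 were higher (CDK5R1 and LAMP3) and 1 lower (SH2B2), with a median of -0.16. Of all genes 0.384% were higher and 0.172% lower, with a median of 0.02. Calls of the 6 genes described here depended on single arrays: all kept their sign, but none of HEY1, HES4, DTX1, MFNG, SH2B2 and DTX4 passed without Rec-1 Mock 2, SP-49 Mock 1, SP-49 Mock 2 or SP-49 GSI 2, and 1 of the 6 passed without Rec-1 Mock 1 or SP-49 GSI 1.

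For other genes of the pathway a difference was not shown, with intervals that bound it. HES1, the best known Notch-induced repressor, responded by -3.80 in Rec-1 and -3.51 in SP-49, and the difference of -0.30 had a 95% interval of -0.90 to 0.31 (adjusted p = 0.77). It read 2.23 and 1.70 on the Rec-1 GSI arrays, against 5.86 and 5.67 on the Rec-1 Mock arrays, and 2.53 and 2.33 on the SP-49 GSI arrays, against 6.11 and 5.77 on the SP-49 Mock arrays. Both lines started within 0.17 of each other and ended near background, where falls are understated. MYC, the growth regulator, fell by 1.53 in Rec-1 and by 1.55 in SP-49. It averaged 6.82 ± 0.42 with inhibitor and 8.35 ± 0.04 on Mock arrays in Rec-1, and 5.77 ± 0.03 and 7.32 ± 0.01 in SP-49 (SD, n = 2 each), so Rec-1 stood 1.05 above SP-49 with inhibitor and 1.03 above it without. The difference was 0.02, with an interval of -0.53 to 0.56 (adjusted p = 0.991).

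FCRL4, an inhibitory receptor of B cells, differed by -0.06 (95% interval -0.58 to 0.46), with responses of -3.28 in Rec-1 and -3.21 in SP-49. CR2, the complement receptor CD21, differed by -0.39 (-0.89 to 0.11), with responses of -3.14 and -2.75. NRARP, a feedback inhibitor of Notch, responded by -1.38 in Rec-1 and -0.76 in SP-49, and its interval lay below 0 (-1.07 to -0.18), but the adjusted p was 0.257. NOTCH3 had a difference of -0.75 (-1.22 to -0.28, adjusted p = 0.209) and NOTCH1 of 0.44 (0.08 to 0.80, adjusted p = 0.34). NOTCH1 started 0.69 lower in Rec-1 than in SP-49.

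Of the 18 genes that passed in both lines, the 95% interval of the difference spanned 0 for 10, lay above 0 for 3 and below it for 5, with half-widths of 0.38 to 0.69. These intervals are per gene, and only that of CDK5R1 (1.91) went with an adjusted p under the threshold. RASSF6, a RAS-association domain gene, rose by 1.26 in Rec-1 and 1.11 in SP-49, with a difference of 0.15 (-0.31 to 0.62). BIK, which promotes apoptosis, rose by 0.76 in Rec-1 and 1.62 in SP-49 (difference -0.86, interval -1.36 to -0.36, adjusted p = 0.16). HK2, a hexokinase of glycolysis, had a difference of -0.73 (-1.19 to -0.27), TASP1, a protease, of -0.63 (-1.13 to -0.13), CCDC86 of -0.55 (-1.01 to -0.09) and BCAT1, which acts on branched-chain amino acids, of -0.47 (-0.85 to -0.09). On the other side, CD300A, an inhibitory receptor, differed by 0.89 (0.21 to 1.58) and TMEM200A by 0.84 (0.45 to 1.22, adjusted p = 0.0782), both having fallen further in SP-49. The intervals spanned 0 for FYN, a Src-family kinase (-0.13), PCBP3 (-0.33), LGMN, a lysosomal protease (0.28), CENPV (0.10) and GFOD1 (0.01), beside HES1, MYC, FCRL4, CR2 and RASSF6.

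Of the 25 gene lists described here, the one with the most genes past the threshold was that of the interferon response, genes that interferons induce through the STAT and IRF factors. Of its 41 measured members 12 had a higher response in Rec-1, against 0.384% of all genes, and none a lower one. The difference was positive for 38 of the 41, against 10433 of all 19775 genes. The median difference was 0.84, against 0.02 over all genes. In Rec-1 17 of the 41 rose and 1 fell, against 2.15% and 3.62% of all genes, with a median response of 0.63. In SP-49 none passed, with a median of -0.15. The members started lower in Rec-1: 34 of the 41 were below SP-49 past the threshold on the Mock arrays, against 15.8% of all genes. On the GSI arrays 22 were, against 14.7% of all genes. The median gap was -0.62 with inhibitor and -1.85 without.

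IFIT3, an antiviral effector, read 4.92 and 4.58 on the Rec-1 GSI arrays, against 3.35 and 2.82 on the Rec-1 Mock arrays. In SP-49 it read 5.53 and 5.39 on the GSI arrays, against 6.36 and 6.29 on the Mock arrays. Both Rec-1 GSI arrays lay above both Rec-1 Mock arrays, the SP-49 GSI arrays lay below the SP-49 Mock arrays, and all SP-49 values stayed above all Rec-1 values. The difference was 2.53 (95% interval 1.95 to 3.11, adjusted p = 0.00388).

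MX1, a GTPase that blocks viruses, read 6.67 and 6.64 on the Rec-1 GSI arrays, against 4.94 and 4.99 on the Rec-1 Mock arrays. SP-49 held it far higher and without a shift, at 9.44 and 9.53 on the GSI arrays, against 9.60 and 9.48 on the Mock arrays. The difference of 1.75 (1.39 to 2.11, adjusted p = 0.00361) left Rec-1 lower by 2.83 log2 units with inhibitor, against 4.58 on Mock arrays. ISG15, a ubiquitin-like modifier, showed the same layout: 6.55 and 6.45 on the Rec-1 GSI arrays, against 4.40 and 4.95 on the Rec-1 Mock arrays, and 8.71 and 8.69 on the SP-49 GSI arrays, against 8.68 and 8.74 on the SP-49 Mock arrays. Its difference was 1.84 (1.25 to 2.44, adjusted p = 0.0166).

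The factors that carry the interferon signal were among the 12. IRF7, an inducer of interferon genes, read 6.47 and 6.49 on the Rec-1 GSI arrays, against 5.12 and 5.10 on the Rec-1 Mock arrays, and 6.94 and 6.64 on the SP-49 GSI arrays, against 7.10 and 6.83 on the SP-49 Mock arrays (difference 1.55, adjusted p = 0.0166). IRF9, the DNA-binding part of the complex that binds the interferon-stimulated response element, read 6.24 and 6.29 on the Rec-1 GSI arrays, against 5.01 and 5.03 on the Rec-1 Mock arrays, and 6.75 and 6.84 on the SP-49 GSI arrays, against 6.91 and 6.90 on the SP-49 Mock arrays (difference 1.35, adjusted p = 0.0117). For each of these factors the Rec-1 values with inhibitor approached but did not reach the SP-49 values.

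The remaining 7 were CMPK2 (2.27), a mitochondrial nucleotide kinase, SAMD9L (1.97) and TRIM22 (1.48), which restrict viruses, PARP9 (1.86) and PARP14 (1.53), which belong to the ADP-ribosyltransferase family, IFITM1 (1.73), which hinders viral entry, and IFI44L (1.70). Over all 12 the Rec-1 response ran from 1.0 (PARP14) to 2.17 (SAMD9L) and the SP-49 response from -0.87 (IFIT3) to 0.20 (SAMD9L). Every one of the 12 was lower in Rec-1 than in SP-49 on the Mock arrays, by 1.68 for PARP14 up to 4.58 for MX1 (gaps of -1.68 to -4.58), and the gap was narrower with inhibitor, at -0.15 for PARP14 to -2.83 for MX1. PARP9 had 1 other probe set, with a difference of -0.16.

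DTX3L, the ubiquitin ligase that pairs with PARP9, was counted in the list of Notch machinery and differed by 1.40 (adjusted p = 0.0166). It read 7.22 and 7.26 on the Rec-1 GSI arrays, against 6.21 and 6.03 on the Rec-1 Mock arrays, and 7.17 and 7.25 on the SP-49 GSI arrays, against 7.44 and 7.54 on the SP-49 Mock arrays. TNFSF10, the death ligand TRAIL, which interferons also induce, differed by 2.0 (1.41 to 2.59, adjusted p = 0.0126). It read 5.38 and 4.89 on the Rec-1 GSI arrays, against 3.63 and 3.22 on the Rec-1 Mock arrays, and 3.77 and 3.55 on the SP-49 GSI arrays, against 3.81 and 4.09 on the SP-49 Mock arrays. Both lines started near each other (gap -0.52), and with inhibitor TNFSF10 was 1.48 higher in Rec-1.

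**Figure D3:**
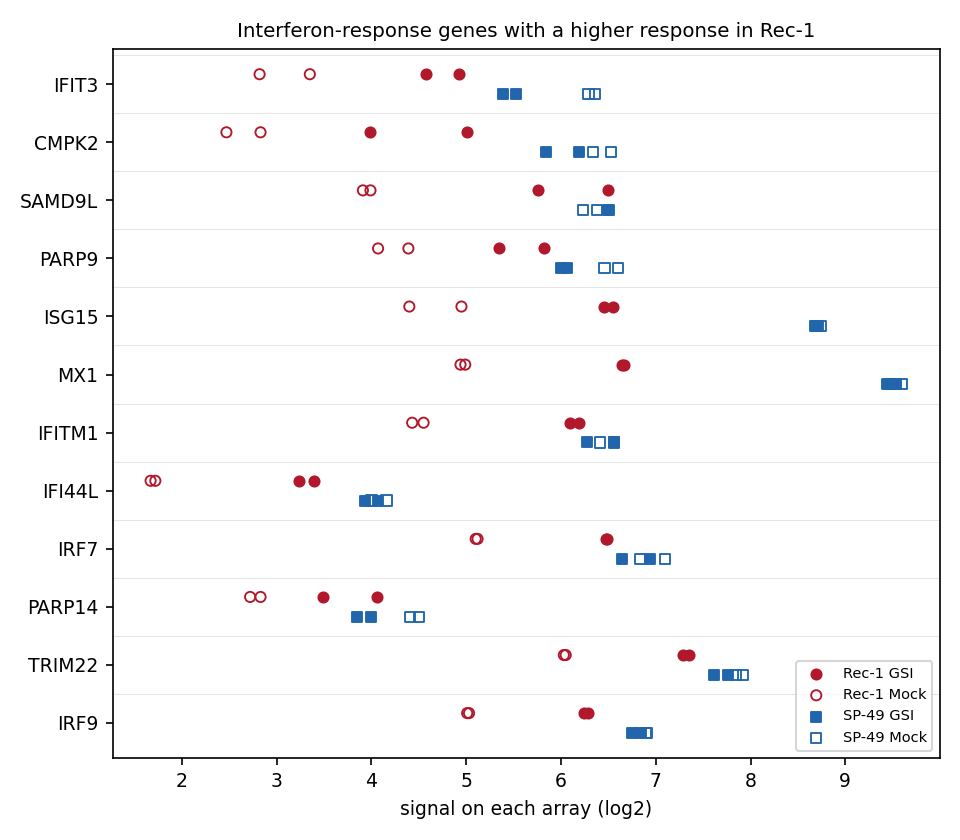
Signal on each array (log2, horizontal axis) of the 12 interferon-response genes with a higher inhibitor response in Rec-1; red circles are Rec-1 and blue squares SP-49, filled for GSI and open for Mock. The Rec-1 GSI arrays lie right of the Rec-1 Mock arrays for every gene and mostly left of the SP-49 arrays.

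The interferon-stimulated response element was searched as GAAA, any 2 bases and GAAA again, on both strands, in the 250 bases before each listed start of the RefSeq promoter table (GRCh38.p14). It was found in 8 of 16 promoters of the interferon-list genes with a higher response (50%, covering 7 of 10 genes with a promoter), in 4 of the 79 promoters of the other genes with a higher response (5.06%), in 0 of 35 promoters of genes with a lower response and in 548 of 21490 promoters of all genes (2.55%). A match is a run of letters, not evidence of binding. The list was made of genes that interferons induce, and the share among its members that did not pass was not counted. These shares therefore describe the list and do not bear on the difference between the lines.
The windows of genes with a higher response are shown because this motif is the element that the interferon-activated factors bind. Capitals mark it, reading TTTC on both sides where it lies on the other strand, and each interval is that of the printed window.
ISG15, chr1:1013370-1013419, plus strand: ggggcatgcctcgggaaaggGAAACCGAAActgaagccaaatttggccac
IFIT3, chr10:89327855-89327904, plus strand: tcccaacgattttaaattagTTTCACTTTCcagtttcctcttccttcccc
MX1, chr21:41431834-41431883, plus strand: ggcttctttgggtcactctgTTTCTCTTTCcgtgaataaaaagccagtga
IFI44L, chr1:78620264-78620313, plus strand: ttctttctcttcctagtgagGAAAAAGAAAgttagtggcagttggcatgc
IFITM1, chr11:313980-314029, plus strand: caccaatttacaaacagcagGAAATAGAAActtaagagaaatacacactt
PARP14, chr3:122680790-122680838, plus strand: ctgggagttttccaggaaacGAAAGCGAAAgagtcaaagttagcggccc
PARP9, chr3:122564312-122564361, minus strand: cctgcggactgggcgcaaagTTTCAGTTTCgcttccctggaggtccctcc
TNFSF10, chr3:172523588-172523637, minus strand: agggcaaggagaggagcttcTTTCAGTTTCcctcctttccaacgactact
CYBB, chrX:37779953-37780002, plus strand: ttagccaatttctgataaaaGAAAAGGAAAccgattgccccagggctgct
TNFSF10, the death ligand, and CYBB, the NADPH oxidase gene, are not in the interferon list. AIM2 and DTNB-AS1, the other genes outside that list with the motif, also had a higher response, and their windows are not printed. The printed window of IFI44L occurs again in the same promoter, at chr1:78620355-78620404. The RBPJ core TGGGAA was held by 14.7% of promoters of genes with a higher response, 28.6% of those with a lower response and 20% of all, and the E-box CACGTG, the letters that MYC and MAX bind, by 4.21%, 8.57% and 7.38%.

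The interferon calls differed in how they stood up to leaving out 1 array. Of the 12, all passed without Rec-1 GSI 2, 11 without Rec-1 GSI 1, 10 without any 1 of the Mino arrays, 7 without Rec-1 Mock 1 or SP-49 GSI 1, 5 without Rec-1 Mock 2 or SP-49 GSI 2, 4 without SP-49 Mock 2, and IFIT3 and MX1 alone without SP-49 Mock 1. All kept a positive difference. Without Rec-1 GSI 2 and SP-49 GSI 2 together, which had the narrowest range of signals (SD over probe sets 1.949 and 1.996), 7 of the 12 passed.

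The most positive difference of all was that of CD1C, which presents lipid antigens to T cells. It read 8.45 and 8.50 on the Rec-1 GSI arrays, against 6.49 and 6.28 on the Rec-1 Mock arrays, and 5.16 and 4.37 on the SP-49 GSI arrays, against 5.76 and 5.88 on the SP-49 Mock arrays. The gap between the lines was 3.71 with inhibitor, against 0.57 on the Mock arrays, which did not pass (adjusted p = 0.0844). The difference was 3.14 (95% interval 2.44 to 3.84, adjusted p = 0.00388), an 8.82-fold ratio between the fold changes, although the SP-49 response of -1.05 did not itself pass (adjusted p = 0.111).

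MPEG1, a pore-forming protein that kills engulfed bacteria, read 5.61 and 5.21 on the Rec-1 GSI arrays, against 3.53 and 3.57 on the Rec-1 Mock arrays. SP-49 kept it at 10.23 and 10.36 on the GSI arrays, against 10.70 and 10.60 on the Mock arrays, so it rose in the line with the lower start. The difference was 2.21 (1.75 to 2.68, adjusted p = 0.00361), and Rec-1 remained 4.88 lower, a gap of -4.88 with inhibitor and -7.10 without. RNASE6, a ribonuclease with antibacterial action, read 5.20 and 5.21 on the Rec-1 GSI arrays, against 2.79 and 2.97 on the Rec-1 Mock arrays. In SP-49 it read 5.22 and 4.32 on the GSI arrays, against 5.02 and 4.97 on the Mock arrays, which overlap. With a difference of 2.55 (1.83 to 3.26, adjusted p = 0.0104) the Rec-1 level drew up to that of SP-49.

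PIGR, the receptor that carries polymeric antibodies across epithelia, also rose in the line with the lower start: 4.32 and 4.11 on the Rec-1 GSI arrays, against 2.48 and 2.93 on the Rec-1 Mock arrays, and 8.37 and 8.17 on the SP-49 GSI arrays, against 8.63 and 8.57 on the SP-49 Mock arrays. The difference was 1.84 (adjusted p = 0.0166), and its other probe set gave -0.16. Innate immune genes with starting levels alike in both lines included CYBB, the catalytic part of the phagocyte NADPH oxidase (difference 1.11, adjusted p = 0.0275), and AIM2, a sensor of DNA in the cytosol (1.08, adjusted p = 0.0334), with Mock gaps of 0.06 and -0.12. PYCARD, the adaptor that joins such sensors to caspase 1, differed by 1.43 (adjusted p = 0.0242). CD180, a receptor of B cells related to the Toll-like receptors, differed by 1.38 (adjusted p = 0.0118), and LY86, which encodes its partner MD-1, by 1.0 (adjusted p = 0.0275). CD180 rose by 0.87 in Rec-1 with a response of -0.51 in SP-49, while LY86 passed in neither line, with 0.35 in Rec-1 and -0.65 in SP-49.

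Several of these genes are also expressed by myeloid cells, so markers of such cells were read beside them. Of 11 listed myeloid markers none had a response that differed, and the median difference was -0.01. In Rec-1 the inhibitor raised 2 of the 11, against 2.15% of all genes, and in SP-49 it raised none. Their summed log2 signal was 20.56 to 20.64 on the Rec-1 GSI arrays, against 18.46 to 18.58 on the Rec-1 Mock arrays, and 17.12 to 17.57 on the SP-49 GSI arrays, against 16.09 to 17.03 on the SP-49 Mock arrays. In Rec-1 8 of the 11 lay under the median of all values with inhibitor and 10 without. The member with the smallest p for the difference was CLEC7A, 1 of those 2, at 3.66 and 3.14 on the Rec-1 GSI arrays, against 2.74 and 2.65 on the Rec-1 Mock arrays, with a difference of 0.93 (adjusted p = 0.155). The part of such markers in the result was not tested. Of CD1C, MPEG1, RNASE6, CYBB, AIM2, PYCARD, CD180, LY86 and PIGR, 9 passed without Rec-1 GSI 1, 8 without Rec-1 GSI 2 and 7 without SP-49 GSI 1. There were 5 without Rec-1 Mock 1, 4 without Rec-1 Mock 2 or SP-49 GSI 2, and CD1C and MPEG1 alone without SP-49 Mock 1 or SP-49 Mock 2.

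Of 28 measured members of the B-cell receptor list, 2 passed for the difference, both higher in Rec-1, against 0.384% of all genes. The median difference was 0.46, against 0.02 over all genes. The list held 22 members with a positive difference, against 10433 of all 19775 genes. It held 8 that rose in Rec-1, against 2.15% of all genes. DAPP1, an adaptor that is recruited to the membrane downstream of the receptor, read 7.11 and 7.05 on the Rec-1 GSI arrays, against 6.19 and 6.10 on the Rec-1 Mock arrays, and 5.93 and 5.90 on the SP-49 GSI arrays, against 6.13 and 6.01 on the SP-49 Mock arrays. The lines started level (gap 0.07) and stood 1.17 apart with inhibitor, with a difference of 1.10 (adjusted p = 0.0212). BANK1, a scaffold protein of the same pathway, read 7.85 and 7.73 on the Rec-1 GSI arrays, against 7.32 and 7.22 on the Rec-1 Mock arrays, and 6.0 and 6.22 on the SP-49 GSI arrays, against 6.82 and 6.81 on the SP-49 Mock arrays. Neither response passed on its own (0.52 and -0.71), and the difference of 1.23 did (adjusted p = 0.0286).

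RASGRP1, which activates RAS after receptor signals, read 6.50 and 5.99 on the Rec-1 GSI arrays, against 4.99 and 4.32 on the Rec-1 Mock arrays, and 3.14 and 2.97 on the SP-49 GSI arrays, against 3.10 and 3.06 on the SP-49 Mock arrays (difference 1.62, adjusted p = 0.0452). NFATC2, a transcription factor activated by calcium, differed by 1.37 (adjusted p = 0.0331) after a start 2.55 below SP-49, a Mock gap of -2.55, although its 3 other probe sets ran from -0.37 to 0.10. EGR1, an immediate-early factor, rose by 0.86 in Rec-1 with a response of -0.40 in SP-49 (difference 1.26, adjusted p = 0.0452), and it was the 1 member of 28 immediate-early genes that passed. Its family member EGR3 had a difference of 1.58 that missed the threshold (adjusted p = 0.0527), with a fall of -1.32 in SP-49 (adjusted p = 0.0466) and a response of 0.26 in Rec-1.

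GPR183, the receptor that guides B cells to the outer follicle, read 5.89 and 5.91 on the Rec-1 GSI arrays, against 4.76 and 4.66 on the Rec-1 Mock arrays, and 7.0 and 6.88 on the SP-49 GSI arrays, against 7.18 and 7.27 on the SP-49 Mock arrays (difference 1.47, adjusted p = 0.0212). It was the 1 of 23 chemokine and migration genes that passed. ZC3H12D, an RNA-binding protein of lymphocytes, read 6.84 and 6.73 on the Rec-1 GSI arrays, against 5.53 and 5.36 on the Rec-1 Mock arrays, and 6.06 and 6.0 on the SP-49 GSI arrays, against 6.32 and 6.28 on the SP-49 Mock arrays. Rec-1 crossed SP-49, with a gap of 0.76 with inhibitor and -0.86 without, and the difference was 1.61 (1.24 to 1.98, adjusted p = 0.00388). The probe set assigned to the immunoglobulin heavy chain locus (IGH) rose by 2.15 in Rec-1, with a difference of 1.88 (adjusted p = 0.0286), while the locus's 3 other probe sets ran from -0.20 to 0.17. Of DAPP1, BANK1, NFATC2, RASGRP1, EGR1, GPR183, ZC3H12D, VPREB3 and IGH, ZC3H12D alone passed without Rec-1 Mock 2, SP-49 Mock 1, SP-49 Mock 2 or SP-49 GSI 2. There were 2 without SP-49 GSI 1, 3 without Rec-1 Mock 1, 4 without either Mino GSI array, 6 without either Mino Mock array, 7 without Rec-1 GSI 1 and 8 without Rec-1 GSI 2.

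In a smaller set the higher response in Rec-1 came from a fall in SP-49. CDK5R1, the activator of the kinase CDK5, fell in both lines. It read 2.21 and 1.97 on the Rec-1 GSI arrays, against 2.76 and 2.89 on the Rec-1 Mock arrays, and 2.36 and 2.0 on the SP-49 GSI arrays, against 4.93 and 4.72 on the SP-49 Mock arrays. Both lines ended at the same level near the median of all values (gap -0.09), from a start that was 2.0 lower in Rec-1 (gap -2.0). The responses were -0.73 in Rec-1 and -2.65 in SP-49, and the difference was 1.91 (1.43 to 2.40, adjusted p = 0.00635). Its other probe set gave -0.12.

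LAMP3, a lysosomal membrane protein of activated cells, lay at 2.32 and 1.65 on the Rec-1 GSI arrays and at 1.47 and 1.59 on the Rec-1 Mock arrays, around or under the median of all values. In SP-49 it read 3.84 and 2.78 on the GSI arrays, against 5.17 and 5.23 on the Mock arrays. The difference was 2.35 (1.42 to 3.28, adjusted p = 0.0386), and a fall in Rec-1 could not have been seen. The same limit held for GPAT3, an enzyme of triglyceride synthesis, which lay at 1.18 and 1.14 on the Rec-1 GSI arrays and at 1.25 and 1.11 on the Rec-1 Mock arrays, with a fall of -1.72 in SP-49 (difference 1.70, adjusted p = 0.0443). It held for SLC16A14, a transporter family member, at 1.53 and 1.57 on the Rec-1 GSI arrays and 1.35 and 1.55 on the Rec-1 Mock arrays (difference 1.24, adjusted p = 0.0482). CDH1, E-cadherin, had the same layout and missed the threshold (difference 1.52, adjusted p = 0.0943).

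ETV1, a transcription factor of the ETS family, had room to fall in both lines. It read 9.32 and 9.29 on the Rec-1 GSI arrays, against 9.02 and 9.01 on the Rec-1 Mock arrays, and 4.67 and 4.15 on the SP-49 GSI arrays, against 5.96 and 5.77 on the SP-49 Mock arrays. The response was 0.29 in Rec-1, which did not pass, and -1.45 in SP-49, which did, and the gap grew to 4.89 with inhibitor, against 3.16 on Mock arrays (difference 1.74, adjusted p = 0.0127). VPREB3, a chain related to the surrogate light chain of early B cells, read 7.80 and 7.60 on the Rec-1 GSI arrays, against 7.35 and 7.53 on the Rec-1 Mock arrays, and 2.98 and 2.68 on the SP-49 GSI arrays, against 3.88 and 3.90 on the SP-49 Mock arrays (difference 1.33, adjusted p = 0.0429). DZANK1 fell by 0.92 in SP-49, with a response of 0.27 in Rec-1 and a difference of 1.19 (adjusted p = 0.0272). Of CDK5R1, LAMP3, ETV1, GPAT3, DTX4, VPREB3, SLC16A14 and DZANK1, 7 passed without Rec-1 GSI 1 and 6 without Rec-1 GSI 2. There were 3 without Rec-1 Mock 1 or SP-49 GSI 1, 2 without SP-49 Mock 2 or SP-49 GSI 2, 1 without Rec-1 Mock 2, and none without SP-49 Mock 1.

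**Figure D4:**
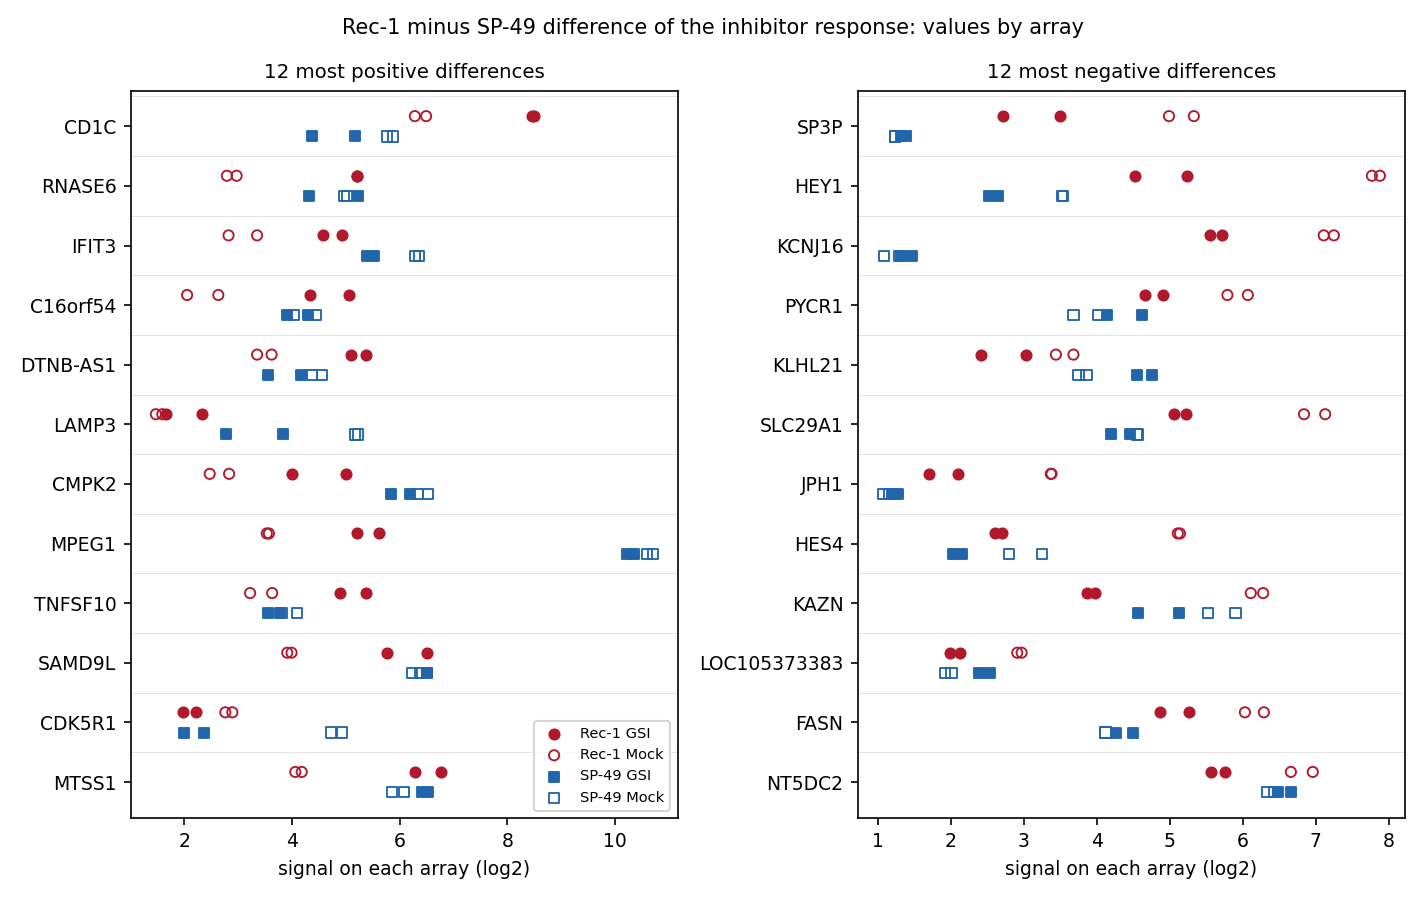
Signal on each array (log2, horizontal axis) of the 12 genes with the most positive and the 12 with the most negative difference; red circles are Rec-1 and blue squares SP-49, filled for GSI and open for Mock. The Rec-1 GSI arrays lie apart from the Rec-1 Mock arrays for all 24 genes, though for LAMP3 by only 0.06 at the nearest, close to background. For LAMP3, CDK5R1 and KLHL21 the SP-49 GSI and Mock arrays lie further apart.

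The other leading rises were MTSS1, which bends membranes by way of actin, C16orf54 and the antisense transcript DTNB-AS1. MTSS1 read 6.76 and 6.29 on the Rec-1 GSI arrays, against 4.18 and 4.06 on the Rec-1 Mock arrays, and 6.41 and 6.53 on the SP-49 GSI arrays, against 5.86 and 6.08 on the SP-49 Mock arrays. The response was 2.41 in Rec-1 and 0.50 in SP-49, where it did not pass, and the lines ended level (gap 0.06, difference 1.91, adjusted p = 0.00933). C16orf54 read 5.06 and 4.34 on the Rec-1 GSI arrays, against 2.05 and 2.63 on the Rec-1 Mock arrays, and 4.29 and 3.91 on the SP-49 GSI arrays, against 4.45 and 4.03 on the SP-49 Mock arrays (difference 2.49, adjusted p = 0.0275). DTNB-AS1 differed by 2.35 (adjusted p = 0.00796), with a gap of 1.37 with inhibitor and -0.98 without. None of these 3 passed without SP-49 Mock 1 or without SP-49 Mock 2.

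For ribosome biogenesis, the making of ribosomes in the nucleolus, 2 of 31 measured genes had a lower response (TSR1 and PES1), against 0.172% of all genes. None had a higher one. The difference was negative for all 31, against 9342 of all 19775 genes. The median difference was -0.43, against 0.02 over all genes. The inhibitor lowered 25 of the 31 in Rec-1, against 3.62% of all genes, and none passed in SP-49. The median response was -0.88 in Rec-1 and -0.38 in SP-49. Rec-1 started above SP-49 by a median of 0.45 on the Mock arrays, and the median gap was -0.01 with inhibitor.

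TSR1, which helps mature the small ribosomal subunit, read 5.95 and 6.02 on the Rec-1 GSI arrays, against 7.50 and 7.39 on the Rec-1 Mock arrays, and 6.02 and 6.0 on the SP-49 GSI arrays, against 6.15 and 6.17 on the SP-49 Mock arrays. The difference was -1.31 (-1.69 to -0.93, adjusted p = 0.0117). PES1, needed for the large subunit, read 5.85 and 5.92 on the Rec-1 GSI arrays, against 6.91 and 6.96 on the Rec-1 Mock arrays, and 5.98 and 6.15 on the SP-49 GSI arrays, against 6.03 and 6.11 on the SP-49 Mock arrays (difference -1.04, adjusted p = 0.0253). In both cases the Rec-1 level came down to about that of SP-49, with gaps of -0.03 and -0.18. However, the other probe set of PES1 gave a difference of -0.01, and the 3 others of TSR1 ran from -0.66 to -0.02.

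Outside that list, EMG1, a methyltransferase that modifies ribosomal RNA, differed by -1.25 (adjusted p = 0.0197) and NOC2L, a nucleolar protein, by -1.28 (adjusted p = 0.0291). Mitochondrial genes in the same direction were POLRMT, the mitochondrial RNA polymerase (-1.30, adjusted p = 0.0212), PNPT1, which degrades RNA there (-0.90, adjusted p = 0.0452), and SFXN4, a protein of the inner membrane (-1.18, adjusted p = 0.0212). The 2 other probe sets of POLRMT ran from -0.58 to 0.53. All 5 fell in Rec-1, with responses of -1.47 (EMG1) to -1.10 (POLRMT and NOC2L), and in SP-49 none passed, with responses of -0.27 (SFXN4) to 0.21 (POLRMT).

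Metabolic genes gave 2 of 33 members of the MYC-linked list, both lower in Rec-1, against 0.172% of all genes. The median difference was -0.29, against 0.02 over all genes, and 27 values were negative, against 9342 of all 19775 genes. PYCR1, which makes proline, read 4.66 and 4.91 on the Rec-1 GSI arrays, against 6.07 and 5.79 on the Rec-1 Mock arrays, and 4.62 and 4.14 on the SP-49 GSI arrays, against 4.02 and 3.68 on the SP-49 Mock arrays. The SP-49 GSI arrays lay above the Mock arrays, and the difference was -1.67 (-2.24 to -1.10, adjusted p = 0.0212). SLC7A5, the importer of large neutral amino acids, also had responses of opposite sign, at 5.15 and 4.76 on the Rec-1 GSI arrays, against 5.69 and 5.62 on the Rec-1 Mock arrays, and 7.80 and 7.92 on the SP-49 GSI arrays, against 7.48 and 7.30 on the SP-49 Mock arrays (difference -1.18, adjusted p = 0.0443). It is a member of the ATF4 stress list too, where it was the 1 of 20 that passed.

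SLC29A1, a nucleoside transporter, read 5.06 and 5.22 on the Rec-1 GSI arrays, against 6.84 and 7.13 on the Rec-1 Mock arrays, and 4.46 and 4.19 on the SP-49 GSI arrays, against 4.55 and 4.56 on the SP-49 Mock arrays (difference -1.61, adjusted p = 0.0166). FASN, fatty acid synthase, differed by -1.35 (adjusted p = 0.0417), but its other probe set gave 0.42. FKBP11, a folding enzyme of the secretory pathway in the plasma cell list, read 5.73 and 5.74 on the Rec-1 GSI arrays, against 6.90 and 7.02 on the Rec-1 Mock arrays, and 6.64 and 6.48 on the SP-49 GSI arrays, against 6.52 and 6.38 on the SP-49 Mock arrays (difference -1.33, adjusted p = 0.0138). It was the 1 of 16 plasma cell genes that passed, and that list had a median response of 0.00 in Rec-1 and 0.40 in SP-49.

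Of TSR1, PES1, NOC2L, EMG1, POLRMT, PNPT1, SFXN4, PYCR1, SLC7A5, FASN, SLC29A1 and FKBP11, all 12 passed without Rec-1 GSI 1, 10 without Rec-1 GSI 2 and 8 without any 1 Mino array. There were 3 without Rec-1 Mock 1, SP-49 GSI 1 or SP-49 GSI 2, 1 without Rec-1 Mock 2, and none without SP-49 Mock 1 or SP-49 Mock 2. Without both Rec-1 GSI 2 and SP-49 GSI 2 there were 3.

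The most negative difference was that of SP3P, a pseudogene of the transcription factor gene SP3, so its probe set may also read SP3 transcripts. It read 3.49 and 2.72 on the Rec-1 GSI arrays, against 4.99 and 5.33 on the Rec-1 Mock arrays, and lay under the median of all values on every SP-49 array (1.23 to 1.39). The difference was -2.18 (-2.88 to -1.47, adjusted p = 0.0166), and a fall in SP-49 could not have been seen. KCNJ16, a potassium channel subunit, had the same limit, with 5.71 and 5.55 on the Rec-1 GSI arrays, against 7.25 and 7.11 on the Rec-1 Mock arrays, and 1.08 to 1.47 over the SP-49 arrays. Its difference was -1.76 (-2.18 to -1.34, adjusted p = 0.00476). So did JPH1, which tethers membranes in muscle (difference -1.60, adjusted p = 0.00947), at 1.07 to 1.28 over the SP-49 arrays.

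KLHL21, an adaptor of a ubiquitin ligase, stood apart with inhibitor after a like start: 3.03 and 2.42 on the Rec-1 GSI arrays, against 3.44 and 3.68 on the Rec-1 Mock arrays, and 4.75 and 4.55 on the SP-49 GSI arrays, against 3.75 and 3.86 on the SP-49 Mock arrays. The response was -0.83 in Rec-1, which passed, and 0.84 in SP-49, which did not (adjusted p = 0.174), and the difference was -1.67 (adjusted p = 0.0321). KAZN, a cytoskeletal protein, read 3.87 and 3.98 on the Rec-1 GSI arrays, against 6.11 and 6.28 on the Rec-1 Mock arrays, and 5.13 and 4.56 on the SP-49 GSI arrays, against 5.52 and 5.90 on the SP-49 Mock arrays (difference -1.40, adjusted p = 0.0478). RUNX3, a transcription factor of lymphocytes, fell by 0.89 in Rec-1 with a response of 0.09 in SP-49 (difference -0.98, adjusted p = 0.0295). LOC105373383, which has no other name here, differed by -1.38 (adjusted p = 0.0158), and NT5DC2 by -1.33 (adjusted p = 0.0212), although the 2 other probe sets of NT5DC2 gave 0.17 and 0.34. Of SP3P, KCNJ16, KLHL21, JPH1, KAZN, LOC105373383, NT5DC2 and RUNX3, 7 passed without Rec-1 GSI 1 or Rec-1 GSI 2 and 4 without Rec-1 Mock 1 or SP-49 GSI 1. There were 3 without SP-49 GSI 2, 2 without Rec-1 Mock 2, and KCNJ16 alone without SP-49 Mock 1 or SP-49 Mock 2.

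For 8 genes, with responses of opposite sign in the 2 lines, the difference passed though neither line did. Beside BANK1 and LY86, they were RXRA, the retinoid X receptor (difference 1.38), TMEM273 (1.66), EHD3, which acts in membrane recycling (1.58), PLXNC1, a semaphorin receptor (1.67), S100A10, a partner of annexin A2 (-1.12), and MAZ, a zinc finger transcription factor (-1.05). RXRA read 3.25 and 3.60 on the Rec-1 GSI arrays, against 3.01 and 2.89 on the Rec-1 Mock arrays, and 5.49 and 5.86 on the SP-49 GSI arrays, against 6.53 and 6.63 on the SP-49 Mock arrays. S100A10 read 3.38 and 3.60 on the Rec-1 GSI arrays, against 3.94 and 3.96 on the Rec-1 Mock arrays, and 8.99 and 8.91 on the SP-49 GSI arrays, against 8.19 and 8.41 on the SP-49 Mock arrays. The GSI and Mock arrays did not overlap in either line for these 2 genes. Responses of the 8 ran from -0.46 (S100A10) to 0.74 (PLXNC1) in Rec-1 and from -1.11 (TMEM273) to 0.67 (MAZ) in SP-49. For each gene the SP-49 response was the larger in size. The other probe set of TMEM273 gave -0.42 and that of S100A10 gave 0.09, and the 3 others of PLXNC1 ran from -0.01 to 0.32. Adjusted p-values of the 8 ran from 0.0271 (TMEM273) to 0.0396 (EHD3), and none of the 8 passed without Rec-1 Mock 1, Rec-1 Mock 2, SP-49 Mock 1, SP-49 Mock 2 or SP-49 GSI 2.

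The remaining 37 genes had differences of -1.32 (LONRF2) to -0.97 (CD320) for the 7 with a lower response and 0.91 (TMEM131) to 1.77 (ZNF595) for the 30 with a higher one. Examples chosen after their values were seen are ALOX5, the enzyme that starts leukotriene synthesis, which averaged 9.18 with inhibitor and 8.24 on Mock arrays in Rec-1, against 1.07 and 1.12 in SP-49 (difference 0.98, adjusted p = 0.0452). The actin-binding genes GSN (1.46, adjusted p = 0.0275) and CAPG (1.76, adjusted p = 0.0343) and LGALS1, galectin-1 (1.04, adjusted p = 0.0429), rose in Rec-1. However, the 6 other probe sets of GSN ran from -0.35 to 0.21, and the 3 others of ALOX5 from -0.35 to 0.62. CYLD, a deubiquitinase that restrains NF-kB, had a difference of 1.05 (adjusted p = 0.0359), with responses of 0.52 in Rec-1 and -0.52 in SP-49.

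Of 19 genes of cholesterol and lipid synthesis FASN alone passed (median difference 0.19), and the median was 0.18 for the ATF4 stress list, 0.18 for the immediate-early genes and 0.36 for chemokines and migration. The lists that follow held no gene that passed. Medians of the difference were -0.33 for 15 heat-shock genes, 0.27 for 24 NF-kB targets, 0.19 for 19 p53 targets, 0.18 for 15 MHC class II genes and 0.16 for 25 B-cell identity genes. They were 0.14 for 32 G2/M genes, 0.10 for 31 ribosomal protein genes, 0.04 for 22 apoptosis regulators, -0.01 for 29 genes of glycolysis and hypoxia and -0.02 for 33 G1/S genes. The members nearest to the threshold in these lists included FKBP4, a cochaperone of HSP90 (-1.13, adjusted p = 0.0666), CFLAR, which blocks death receptor signals (0.95, adjusted p = 0.0568), MEF2C of the B-cell identity list (1.10, adjusted p = 0.0624), TP53INP1 (1.44, adjusted p = 0.0959), VEGFA (-1.14, adjusted p = 0.111) and MARCHF1, which removes MHC class II from the surface (1.32, adjusted p = 0.244). MCM10, a replication factor, differed by -0.38 (adjusted p = 0.403), CENPF, a kinetochore protein, by 0.57 (adjusted p = 0.289) and RPLP1, a ribosomal protein, by 0.35 (adjusted p = 0.443). Lists of markers of T and NK cells (median -0.06) and of stromal and epithelial cells (0.05) held none either, with CD8A at -1.03 (adjusted p = 0.0947) and ACTA2 at 1.15 (adjusted p = 0.135).

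**Figure D5:**
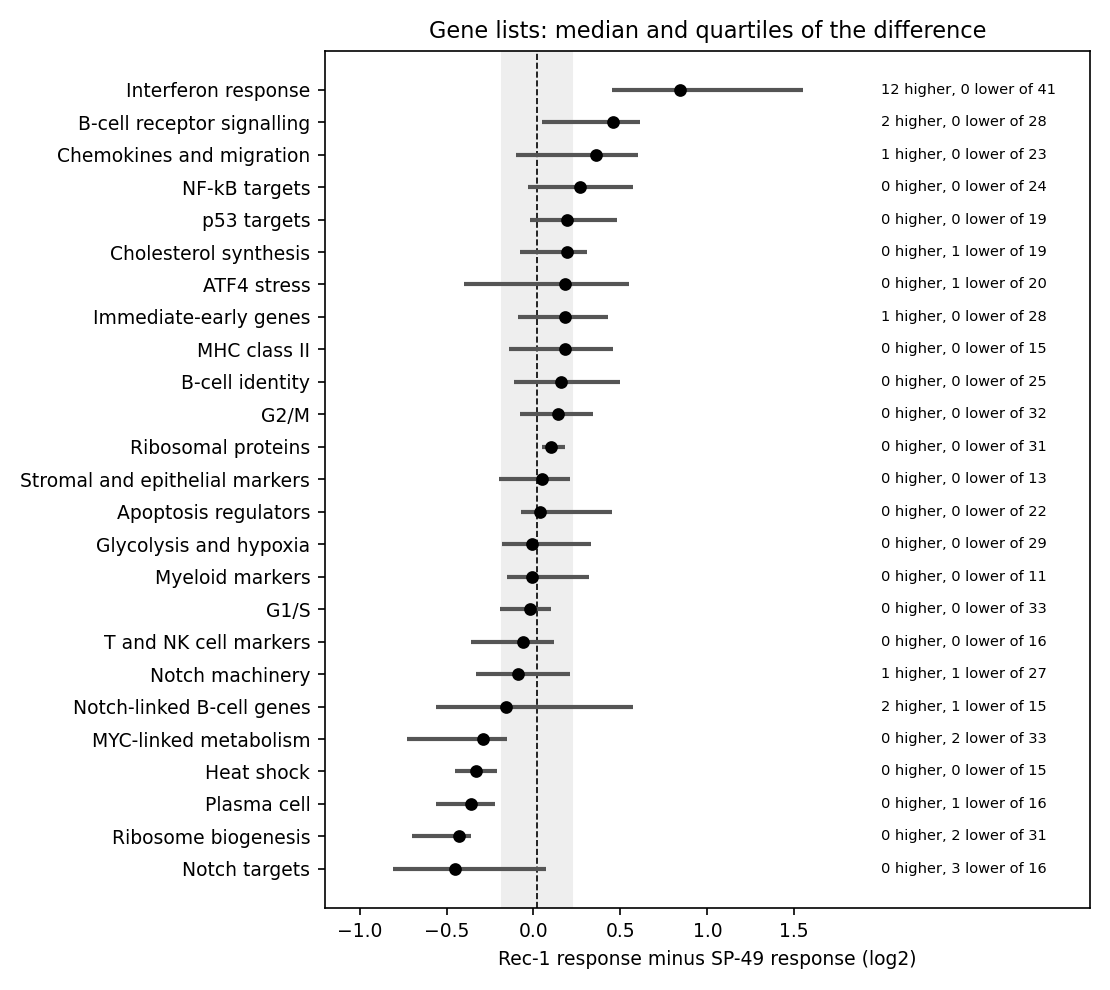
Median (point) and quartiles (bar) of the Rec-1 response minus the SP-49 response (log2, horizontal axis) over the measured members of each gene list, with the number of members past the threshold in each direction at the right. The grey band and dashed line are the quartiles and median of all 19775 genes; the interferon list lies highest (median 0.84) and the Notch target and ribosome biogenesis lists lowest (-0.45 and -0.43).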

How the data were processed

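Values were the authors' deposited log2 signals, normalized between arrays; the submitters' processing notes name RMA and limma without versions, and base 2 was inferred from the range of the values. Of 54675 probe sets, 41097 named 1 gene, 1801 several and 11777 none in the annotation used here, and 41043 symbols were updated by gene number. Each gene was read from the probe set naming it alone with the highest mean over the 12 arrays. limma 3.58.1 in R 4.3.3 fitted 6 group means with a constant prior variance (6 residual and 5.22 prior degrees of freedom). Tests were two-sided with Benjamini-Hochberg adjustment over 19775 genes and a threshold of 0.05. Intervals are per gene. Probe sets naming several genes were not used.

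Genes were named as the 12 most positive and 12 most negative differences, 10 fixed Notch-linked genes, up to 4 members per list, the 8 genes past the threshold in SP-49 that differed most, and the 18 past it in both lines. Other named genes, and the groups in which the text sets them, were chosen after their values were seen: PARP9, ISG15, IFI44L, IRF7, PARP14, IRF9, CYBB, AIM2, PYCARD, CD180, LY86, PIGR, NFATC2, RASGRP1, ZC3H12D, IGH, SLC16A14, DZANK1, RXRA, TMEM273, EHD3, PLXNC1, S100A10, MAZ, NOC2L, EMG1, POLRMT, PNPT1, SFXN4, RUNX3, ALOX5, GSN, CAPG, LGALS1 and CYLD. LONRF2, CD320, TMEM131 and ZNF595 were named as the ends of ranges. The comparison and all lists were chosen with earlier results of these data known. Replicate numbers were not used to pair the arrays in the main fit. Deviations of same-numbered arrays from their group means correlated by 0.094 in Rec-1, -0.011 in SP-49 and 0.046 in Mino. Missing list members were not analysed here, which left 15 of 19 heat-shock, 19 of 25 cholesterol and 31 of 40 ribosomal protein genes. Alternatives were probe sets tested singly or averaged per gene, no dim genes, quantile normalization, median centring, array weights, a robust prior with an intensity trend, the 8 arrays alone, a 1.5-fold minimum, a replicate block and arrays left out. The fit was tested on simulated data.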

Additional observations from a re-analysis of the deposited data

Results flagged for a closer look

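For the genes named in the text that passed for the difference, the effect of the inhibitor differed between the lines by the test of the difference itself (limma, adjusted p under 0.05). They are given here with the Rec-1 response minus the SP-49 response on the log2 scale. Left out here are LONRF2, CD320, TMEM131, ZNF595, ALOX5, GSN, CAPG, LGALS1 and CYLD, whose values stand in the Results. Positive differences among immune and B-cell genes were CD1C (3.14), RNASE6 (2.55), MPEG1 (2.21), TNFSF10 (2.0), IGH (1.88), PIGR (1.84), RASGRP1 (1.62), ZC3H12D (1.61), GPR183 (1.47), PYCARD (1.43), CD180 (1.38), NFATC2 (1.37), VPREB3 (1.33), EGR1 (1.26), BANK1 (1.23), CYBB (1.11), DAPP1 (1.10), AIM2 (1.08) and LY86 (1.0). In the interferon group they were IFIT3 (2.53), CMPK2 (2.27), SAMD9L (1.97), PARP9 (1.86), ISG15 (1.84), MX1 (1.75), IFITM1 (1.73), IFI44L (1.70), IRF7 (1.55), PARP14 (1.53), TRIM22 (1.48), DTX3L (1.40) and IRF9 (1.35). Other positive differences were C16orf54 (2.49), DTNB-AS1 (2.35), LAMP3 (2.35), CDK5R1 (1.91), MTSS1 (1.91), ETV1 (1.74), GPAT3 (1.70), PLXNC1 (1.67), TMEM273 (1.66), EHD3 (1.58), DTX4 (1.51), RXRA (1.38), SLC16A14 (1.24) and DZANK1 (1.19). Negative differences among Notch-linked genes were HEY1 (-1.99), HES4 (-1.55), SH2B2 (-1.19), MFNG (-1.08) and DTX1 (-1.05). Among genes of ribosome biogenesis, mitochondria, metabolism and secretion they were PYCR1 (-1.67), SLC29A1 (-1.61), FASN (-1.35), FKBP11 (-1.33), TSR1 (-1.31), POLRMT (-1.30), NOC2L (-1.28), EMG1 (-1.25), SLC7A5 (-1.18), SFXN4 (-1.18), PES1 (-1.04) and PNPT1 (-0.90), and elsewhere SP3P (-2.18), KCNJ16 (-1.76), KLHL21 (-1.67), JPH1 (-1.60), KAZN (-1.40), LOC105373383 (-1.38), NT5DC2 (-1.33), S100A10 (-1.12), MAZ (-1.05) and RUNX3 (-0.98). Groups of 2 arrays are too small to look for single arrays that stand apart.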

How the results depend on the processing

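No gene past the threshold for the difference changed sign under any alternative run on it, but the number past it moved, and signs were less uniform between a gene's probe sets. Of the 110 genes 61 had further probe sets, and for 23 of these (14 higher and 9 lower in Rec-1) at least 1 gave the other sign, among them ETV1 (lowest -0.62), EGR1 (-0.43), MTSS1 (-0.16), CYBB (-0.11) and RUNX3 (highest 0.36). Of the 110 genes (76 higher and 34 lower in Rec-1), the count was 343 (202 and 141) with an intensity trend and a robust prior, 30 (24 and 6) with the 8 Rec-1 and SP-49 arrays alone, 4 (4 and 0) in the test against 1.5-fold, where CD1C, IFIT3, MPEG1 and MX1 passed, and 38 (28 and 10) without Rec-1 GSI 2 and SP-49 GSI 2 together. With the replicate number as a block it was 50 (38 and 12), of which 43 were among the 110. Deviations of same-numbered arrays were nearly uncorrelated, and the cause of this lower count was not tested. Leaving out 1 array gave 6 to 283 genes, 5 to 109 higher and 1 to 175 lower, with the lowest count without SP-49 Mock 1, and CD1C, IFIT3, MPEG1, MX1, ZC3H12D and KCNJ16 passed each time. The count moved by over 1.5 times without any 1 of the 8 arrays compared except Rec-1 GSI 2: 283 without Rec-1 GSI 1, 57 without SP-49 GSI 1, 40 without Rec-1 Mock 1, 22 without SP-49 GSI 2, 19 without Rec-1 Mock 2, 11 without SP-49 Mock 2 and 6 without SP-49 Mock 1; it was 71 without either Mino Mock array and 60 without either Mino GSI array. The cause was not tested beyond the fewer arrays in each fit. Counts stayed within 1.5 times for probe sets tested singly (110, of which 69 were among the first 110), probe sets averaged per gene (110, of which 67 were among the first 110), no dim genes (113), quantile normalization (121), median centring (100) and array weights (98). The number of arrays is the main limit of precision, and signals near background limit how far a fall can be read.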
